A study of Mus musculus with 17 samples.

Results

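The nuclear genes of the mitochondrial respiratory chain and ATP synthase were followed in sorted intestinal stem cells, with and without gamma-irradiation. They were taken by name: every gene on the array whose name begins with Nduf, Uqcr, Cox4 to Cox8 or Atp5, or is Sdha, Sdhb, Sdhc or Sdhd, with the brightest probe standing for each gene. This gave 90 of 34797 names on the array, of which 87 were among the 27604 names tested. The other members, Cox7b2, Cox8b and Cox8c, were well above background on 1, 3 and 1 of 16 arrays and were too dim to test. RNA came from LGR5-GFPki mice, which carry a GFP knock-in at Lgr5, and every group shares that genotype. Cells had been sorted by GFP level into LGR5hi and LGR5lo fractions 3 hours after 12 Gy of gamma-irradiation or after no irradiation (0 Gy). Non-irradiated LGR5hi cells (n = 4 arrays), non-irradiated LGR5lo cells (n = 5), irradiated LGR5hi cells (n = 4) and irradiated LGR5lo cells (n = 4) were measured on 17 single-colour Agilent arrays. Each group held 2 female arrays, and the remaining arrays were male. The sorted fractions are mixtures defined by reporter brightness, and the age of the mice and the number of animals behind an array are not given in the sources used here. The p-values therefore measure only the spread between these arrays, which may be technical in part.

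The inner mitochondrial membrane carries a chain of large enzymes. Complex I takes electrons from NADH and complex II takes them from succinate, coenzyme Q and complex III pass them on, and cytochrome c delivers them to complex IV, which reduces oxygen. The protons pumped on the way drive ATP synthase. Most subunits are encoded in the nucleus and imported, a few core subunits are encoded by mitochondrial DNA, and several complex IV subunits have isoforms typical of muscle, lung or testis. In the intestinal crypt, Lgr5-positive stem cells are known to rely on mitochondrial respiration, while neighbouring Paneth cells are more glycolytic.

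The labelled cell types were checked against marker genes. All 8 stem cell markers, Lgr5 and Olfm4 among them, were higher in LGR5hi than in LGR5lo cells in both arms, with a median of 1.65 log2 without and 1.58 log2 with irradiation. LGR5lo cells held more RNA of enteroendocrine and goblet cells: 8 of 8 enteroendocrine and 5 of 6 goblet markers were called higher there in both arms. All 5 tuft markers lay higher there, called for 5 without and 4 with irradiation. The summed enteroendocrine level was 4.58 to 6.0 in LGR5hi arrays and 8.75 to 9.92 in LGR5lo arrays. Of 5 Paneth markers 0 were called between the sorts, at medians of -0.39 without and -0.85 with irradiation (LGR5hi minus LGR5lo). Their summed level was 8.38 to 9.91 in LGR5hi and 8.56 to 10.19 in LGR5lo arrays. Of 8 enterocyte markers 0 were called as well, at medians of -0.60 and -0.88. Their summed level ranged from 6.95 to 9.12 within the non-irradiated LGR5hi arrays. In such bulk RNA, fewer cells of a type and less RNA per cell cannot be told apart. With irradiation, 5 of 8 stem cell markers fell in LGR5hi cells and 4 of 8 in LGR5lo cells, with medians of -0.97 and -0.95 log2. Lgr5 itself changed by -1.53 ± 0.29 and -1.27 ± 0.28 (limma adjusted p = 0.00187 and 0.00961). Of 8 leukocyte markers 2 rose in each sort, Cd14 and Cd79b, and 1 fell in LGR5lo cells, and of 8 enteroendocrine markers 2 rose in each sort. The haemoglobin gene Hba-a1 fell in LGR5hi cells (-1.17 ± 0.35, adjusted p = 0.0367). The part of these cell types in the changes after irradiation below was not tested. A level here is the normalised log2 signal, that is, the log2 processed signal minus the array's 75th percentile, which itself ranged from 286 to 627 intensity units. Of the 16 arrays with spot flags, 15 had 58.9% to 73.9% of spots well above background. Non-irradiated LGR5lo replicate 2 stood apart with 95.6% and a spike-in slope of 0.791, against 0.946 to 1 on the others, except that replicate 4 of the same group had a recorded slope of 0. Non-irradiated LGR5hi replicate 1 had no usable scanner table, and its values were rebuilt from the authors' deposited log2 table. It enters the fits without spot flags, except the one with normexp background correction, which used the other 16 arrays. For calls lost with normexp, the part of this missing array was not tested.

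Promoters of members on which the results below turn are printed here, because NRF1, ETS factors, YY1 and the ERR receptors are known regulators of respiratory chain genes and p53 is the transcription factor activated by radiation. RefSeq (GRCm38.p6) held promoters for 74 of the 90 members, in 80 entries of 300 bases, from 250 before to 50 after the transcription start. The motifs were searched on both strands. The NRF1 consensus, searched as GCGCA, then any base, then GCGC, was in 23.8% of member promoters (19 of 80) and in 4.6% of all 32851 promoters. The ETS core CCGGAAG was in 21.2% against 8.86%, the YY1 core AAGATGGC in 15% against 2.75% and the ERR half-site AAGGTCA in 10% against 4.72%. The motifs can overlap one another, and some entries are alternative starts of one gene. A full p53 site, as a pair of decamers at most 13 bases apart, was in 0 of 80 member promoters and in 0.0731% of all. The 250 bases before the start follow, each 5′ to 3′ on the gene's strand, the minus strand in every case, with motif matches in capitals. They are Cox6b2 (chr7:4753095-4753344), Ndufb6 (chr4:40279422-40279671), Ndufab1 (chr7:122101849-122102098), Ndufaf1 (chr2:119662835-119663084), Ndufaf3 (chr9:108567437-108567686), Sdha (chr13:74350241-74350490) and Sdhd (chr9:50603850-50604099).
Cox6b2: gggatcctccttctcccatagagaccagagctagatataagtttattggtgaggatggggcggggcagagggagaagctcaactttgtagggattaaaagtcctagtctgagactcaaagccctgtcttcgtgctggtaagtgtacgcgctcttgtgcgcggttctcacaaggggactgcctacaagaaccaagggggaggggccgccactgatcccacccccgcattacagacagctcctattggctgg
Ndufb6: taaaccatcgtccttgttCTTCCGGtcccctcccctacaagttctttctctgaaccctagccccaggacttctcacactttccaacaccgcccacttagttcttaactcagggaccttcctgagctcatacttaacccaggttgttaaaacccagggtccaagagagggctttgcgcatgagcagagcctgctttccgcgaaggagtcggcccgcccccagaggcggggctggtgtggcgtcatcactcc
Ndufab1: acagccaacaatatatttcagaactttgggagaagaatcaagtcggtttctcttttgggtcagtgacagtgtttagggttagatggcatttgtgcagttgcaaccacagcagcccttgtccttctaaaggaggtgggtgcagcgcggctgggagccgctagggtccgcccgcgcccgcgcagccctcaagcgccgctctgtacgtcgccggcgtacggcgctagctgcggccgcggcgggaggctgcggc
Ndufaf1: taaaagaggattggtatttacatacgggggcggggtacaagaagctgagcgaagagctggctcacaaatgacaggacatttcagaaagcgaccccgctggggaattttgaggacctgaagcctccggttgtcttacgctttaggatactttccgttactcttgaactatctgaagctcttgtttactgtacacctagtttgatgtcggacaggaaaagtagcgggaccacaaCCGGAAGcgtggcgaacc
Ndufaf3: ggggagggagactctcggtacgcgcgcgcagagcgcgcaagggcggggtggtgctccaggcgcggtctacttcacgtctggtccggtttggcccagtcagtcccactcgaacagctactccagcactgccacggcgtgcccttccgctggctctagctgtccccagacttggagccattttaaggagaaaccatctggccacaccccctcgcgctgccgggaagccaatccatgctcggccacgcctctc
Sdha: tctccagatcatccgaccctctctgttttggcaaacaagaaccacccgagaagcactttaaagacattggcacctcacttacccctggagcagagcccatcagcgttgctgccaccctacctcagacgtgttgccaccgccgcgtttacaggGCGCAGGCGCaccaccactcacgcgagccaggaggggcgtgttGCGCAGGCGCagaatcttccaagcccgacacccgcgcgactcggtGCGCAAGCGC
Sdhd: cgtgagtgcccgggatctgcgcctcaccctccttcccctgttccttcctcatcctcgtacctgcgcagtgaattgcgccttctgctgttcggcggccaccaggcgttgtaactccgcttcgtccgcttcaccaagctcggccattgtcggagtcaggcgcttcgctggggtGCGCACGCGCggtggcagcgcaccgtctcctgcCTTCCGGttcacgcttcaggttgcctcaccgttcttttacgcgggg
The window of Sdha held 3 NRF1 matches, and that of Sdhd held 1 NRF1 and 1 ETS match before the start and an ERR match after it, beyond the printed part. Ndufb6 and Ndufaf1 each held 1 ETS match. The windows of Cox6b2, Ndufab1 and Ndufaf3 held none of the letters searched, which says nothing about binding of the factors.

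The study asked how gene expression of each fraction answers irradiation. In LGR5hi cells 3 members rose and 1 fell of the 87 tested, against 13.5% of all names called (limma, Benjamini-Hochberg adjusted p under 0.05; 6.18% higher and 7.3% lower). Those that rose were the testis isoform gene Cox6b2 and the complex I genes Ndufb6 and Ndufab1, and the one that fell was the complex I assembly factor gene Ndufaf3. Few changed, but most lay slightly below 0: the median over members was -0.13 log2 with 72 of 87 below 0, where the median over all names was -0.02. In LGR5lo cells 3 members rose and 0 fell, against 7.51% of all names called (4.48% higher and 3.02% lower). They were Cox6b2, Ndufb6 and the assembly factor gene Ndufaf1. Here the median was 0.17 log2 with 73 of 87 above 0, where all names lay at -0.13, but this sign rests on the scaling: the members' median was -0.01 after quantile normalization and with array weights, 0.29 after median centring and 0.06 without non-irradiated LGR5lo replicate 2. In LGR5hi cells it was -0.17 after either scaling, -0.20 with array weights and -0.13 without that array. Median centring moved the median of all names from -0.13 to -0.01 for LGR5lo cells, from -0.08 to 0.07 for LGR5hi against LGR5lo cells without irradiation, and from 0.06 to -0.11 for the difference of the irradiation effects, while quantile normalization moved the first of these to 0.06 and the next to 0.11.

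**Figure D1:**
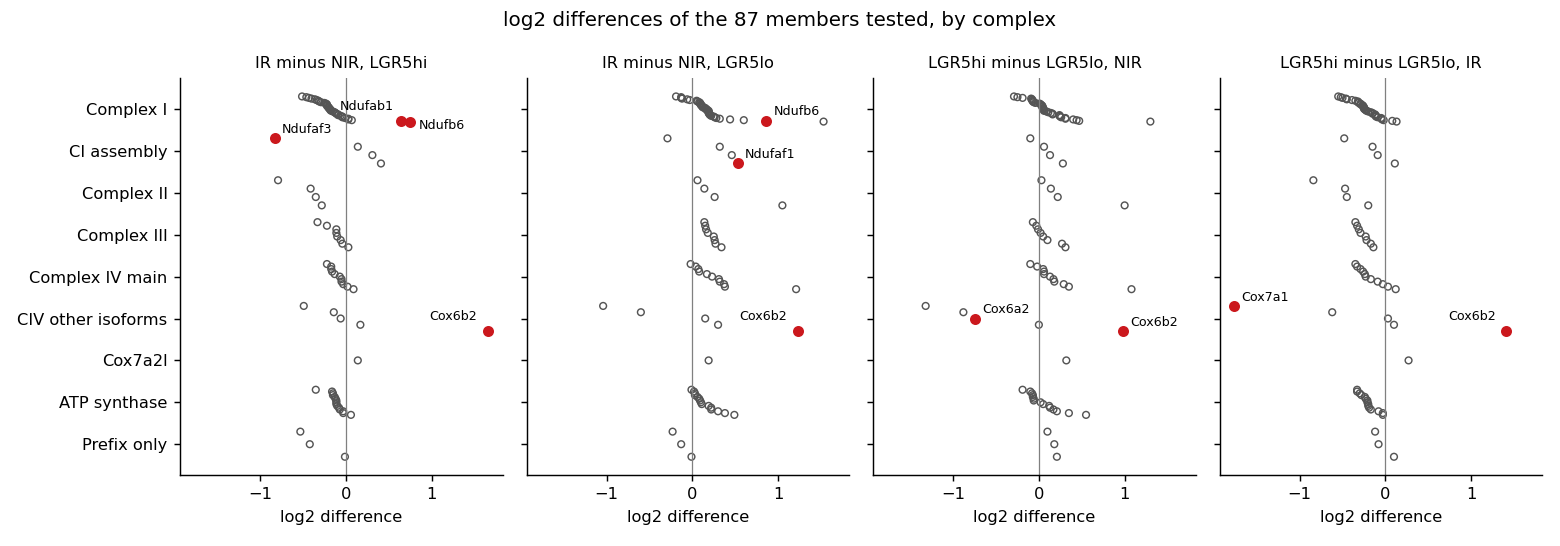
Log2 difference of each of the 87 members tested (points), by complex, for irradiated (IR) minus non-irradiated (NIR) cells of each sort and for LGR5hi minus LGR5lo cells of each arm; red points are called by limma at an adjusted p under 0.05. Few points are red, and the members' median is -0.13 for irradiated LGR5hi cells and 0.17 for LGR5lo cells (-0.01 there after quantile normalization).

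Members are abundant transcripts, with a median level at percentile 96 of the names tested and 79 of 87 in the brightest of 5 equal classes. Among the 5521 names of that class 15.8% were called for irradiation in LGR5hi cells, and 1 of the 79 members in it was. For LGR5lo cells these were 9.07% and 2 members. The median difference in that class was 0.02 in LGR5hi and 0.17 in LGR5lo cells, the latter equal to the members' own median. In LGR5hi cells 4 members were higher (4.6%) and 11 lower (12.6%) on every irradiated than on every non-irradiated array, against 10.8% and 13% of all names. In LGR5lo cells 5 were higher (5.75%) and 0 lower, against 5.96% and 4.87%. The count of called members in LGR5hi cells was 2 after median centring (2.3%, against 11.1% of all names) and 10 after quantile normalization (11.5%, against 13.7%). It was 17 with array weights (19.5%, against 25.7%) and 9 without non-irradiated LGR5lo replicate 2 (10.3%, against 18.7%), which enters that comparison through the shared spread. In LGR5lo cells it was 5 after quantile normalization, 6 with array weights and 1 in a fit of only the compared groups, against 7.97%, 12% and 2.84% of all names. Within a single slide it was 0 in both sorts, against 0.956% and 5.64% of all names on slides 1 and 2 in LGR5hi cells and 0.152% and 1.64% in LGR5lo cells.

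Complex I has 36 subunits in the set, of which 2 rose and 0 fell in LGR5hi cells and 1 rose and 0 fell in LGR5lo cells. Their medians were -0.19 and 0.16 log2 (-0.18 and -0.03 after quantile normalization, -0.23 and 0.28 after median centring). Ndufb6, an accessory subunit of the membrane arm, rose in both sorts. Its level on the non-irradiated LGR5hi arrays was 5.06, 5.13, 5.07 and 4.87, and on the irradiated ones 5.70, 6.02, 5.71 and 5.71. On the LGR5lo arrays it went from 5.41, 4.42, 5.31, 5.03 and 4.69 to 5.83, 5.93, 5.68 and 5.87. Every irradiated array lay above every non-irradiated array of its sort, with the lowest value on non-irradiated LGR5lo replicate 2. The rise was 0.75 ± 0.19 log2 in LGR5hi cells (SE; limma adjusted p = 0.0137) and 0.86 ± 0.18 in LGR5lo cells (adjusted p = 0.00788). A second probe of the gene gave 0.76 in LGR5hi cells. The call in LGR5hi cells was lost after median centring (adjusted p = 0.0784) and that in LGR5lo cells in a fit of only the compared groups (adjusted p = 0.093).

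Ndufab1, the mitochondrial acyl carrier protein that is also a subunit of complex I, rose in LGR5hi cells. It measured 1.80, 1.97, 1.85 and 1.71 on the non-irradiated and 2.30, 2.46, 2.48 and 2.66 on the irradiated LGR5hi arrays, a difference of 0.64 ± 0.15 log2 (adjusted p = 0.00951). In LGR5lo cells it measured 2.25, 1.69, 2.24, 2.42 and 2.03 without and 2.52, 2.51, 2.49 and 2.73 with irradiation, and the difference of 0.44 ± 0.15 was not called (adjusted p = 0.0865). The arrays did not overlap in either sort. The call in LGR5hi cells was lost after median centring (adjusted p = 0.0827), and the difference between the sorts, 0.21 ± 0.21, was not called (adjusted p = 0.752). The Ndufab1 probe (NM_028177) maps to chromosome 7, 129231667 to 129231726, and the tested Ndufb6 probe (NM_001033305) spans chromosome 4, 40219858 to 40224715, both on mm9 by the array's annotation.

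On the irradiated LGR5hi arrays 5 of 36 complex I subunits (13.9%) lay lower without overlap, against 13% of all names, and none of them passed the test. Ndufs7, an iron-sulphur subunit, measured 6.51, 6.47, 6.15 and 6.28 without and 5.80, 5.99, 5.81 and 5.78 with irradiation. Its neighbour Ndufs8 measured 4.36, 4.23, 4.13 and 4.0 without and 3.79, 3.80, 3.63 and 3.78 with it. The groups were apart for both, at -0.51 ± 0.18 for Ndufs7 (adjusted p = 0.0713) and -0.43 ± 0.17 for Ndufs8 (adjusted p = 0.131). Ndufs3 (named after its value was seen), of the same arm, also did not overlap, at -0.34 ± 0.17, nor did the membrane arm subunit Ndufb10, at -0.46 ± 0.17 (adjusted p = 0.0916). In LGR5lo cells Ndufs7 was -0.03 ± 0.17, Ndufs8 0.15 ± 0.16 and Ndufb10 -0.19 ± 0.16, with overlapping arrays. The core subunit Ndufs1 (named after its value was seen) was -0.19 ± 0.22 in LGR5hi cells, with overlap (adjusted p = 0.723). Ndufs4, an accessory subunit, had the largest p of the class, with a difference of -0.01 ± 0.16 in LGR5hi cells. In a fit without non-irradiated LGR5lo replicate 2, Ndufb10 and Ndufs7 were called lower in LGR5hi cells (adjusted p = 0.0442 and 0.0275).

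The 4 assembly factors of complex I, which help to build it without staying in it, went different ways. Ndufaf3 fell in LGR5hi cells: it measured 1.69, 1.77, 1.35 and 1.36 without and 0.74, 0.76, 0.66 and 0.71 with irradiation. All irradiated arrays lay clearly below all others of the sort. The change was -0.83 ± 0.16 log2 (adjusted p = 0.00169), was -0.98 on slide 1 and -0.67 on slide 2, and kept its call under all 31 alternatives that used both slides. In LGR5lo cells Ndufaf3 went from 1.85, 1.15, 1.64, 1.48 and 1.32 to 1.20, 1.09, 1.19 and 1.30, a difference of -0.29 ± 0.15 (adjusted p = 0.234) with overlap. Its assembly partner Ndufaf4 lay the other way, at 0.41 ± 0.17 in LGR5hi (adjusted p = 0.13) and 0.46 ± 0.16 in LGR5lo cells (adjusted p = 0.091).

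Ndufaf1, an assembly factor of the membrane arm, rose in LGR5lo cells, from 2.85, 2.26, 2.60, 2.66 and 2.60 to 3.15, 3.02, 3.16 and 3.15. In LGR5hi cells it measured 2.74, 2.73, 2.73 and 2.69 without and 3.07, 2.95, 3.01 and 3.09 with irradiation. The arrays were apart in both sorts, by 0.53 ± 0.12 log2 in LGR5lo cells (adjusted p = 0.0128) and by 0.31 ± 0.13 in LGR5hi cells (adjusted p = 0.139). The call in LGR5lo cells was lost in the fit of only the compared groups (adjusted p = 0.147), and a call in LGR5hi cells was gained without non-irradiated LGR5lo replicate 2 (adjusted p = 0.0386). Ndufaf2, a late-stage factor, was 0.14 ± 0.14 and 0.32 ± 0.13 (adjusted p = 0.653 and 0.163).

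**Figure D2:**
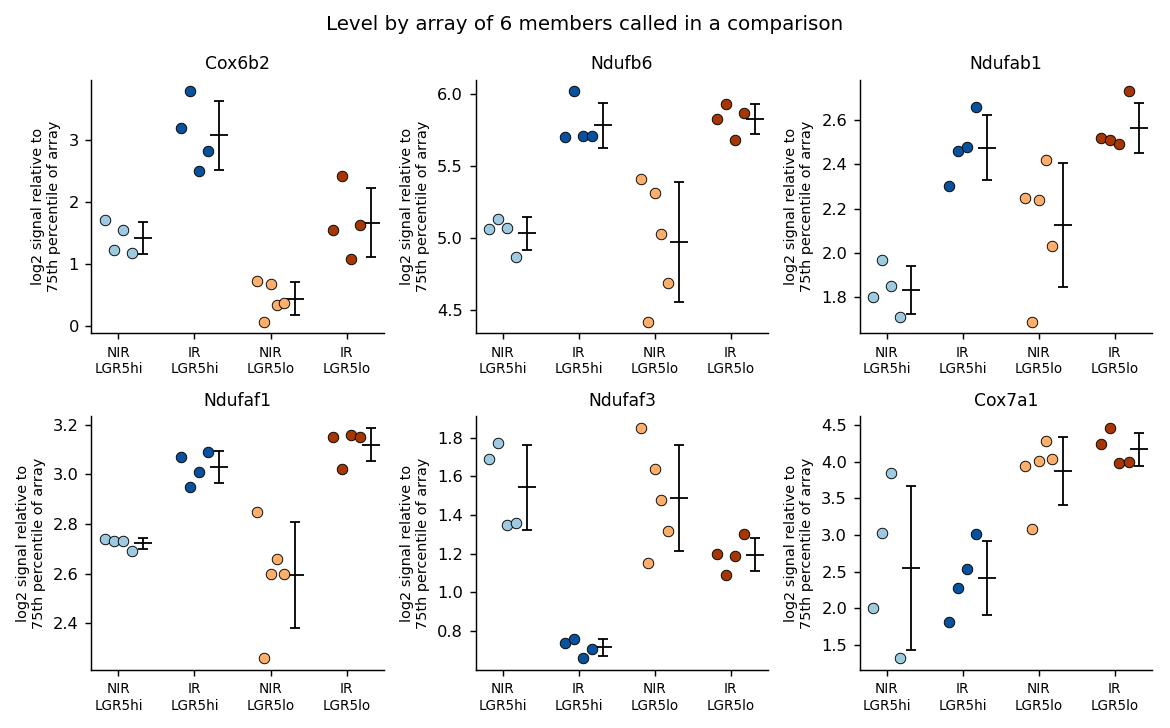
Normalised log2 signal of 6 members on each array (points, replicate number from left to right within a group) with the group mean and SD (bars) in the 4 groups. Ndufb6, Ndufab1, Ndufaf1 and Cox6b2 lie higher on every irradiated (IR) array than on the non-irradiated (NIR) arrays of their sort, Ndufaf3 lies lower after irradiation in LGR5hi cells, and Cox7a1 lies higher in irradiated LGR5lo than in irradiated LGR5hi cells.

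Complex II, succinate dehydrogenase, links the citric acid cycle to the chain and is built from 4 nuclear subunits. None was called in any comparison, with 0 at an unadjusted p under 0.05 for irradiation in either sort. All 4 nevertheless lay lower in irradiated LGR5hi cells, with a median of -0.38 log2 (-0.37 after quantile normalization, -0.43 after median centring). Sdha, the flavoprotein, measured 5.59, 5.62, 5.86 and 5.66 without and 5.30, 5.30, 5.53 and 5.49 with irradiation, and Sdhb, the iron-sulphur subunit, 6.92, 6.84, 6.88 and 6.41 without and 6.35, 6.60, 6.33 and 6.12 with it. Sdhc, a membrane anchor, measured 4.80, 4.90, 5.22 and 4.83 and then 4.49, 4.63, 4.61 and 4.63. The arrays of Sdha and Sdhc did not overlap, as for 13% of all names on the lower side, while those of Sdhb did because of non-irradiated replicate 4. The differences were -0.28 ± 0.18, -0.41 ± 0.20 and -0.35 ± 0.19 (adjusted p = 0.424, 0.245 and 0.313). In LGR5lo cells they were 0.14 ± 0.17, 0.06 ± 0.19 and 0.26 ± 0.18, and the median of the complex there, 0.20, was 0.01 after quantile normalization and -0.01 with array weights.

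Sdhd, the other membrane anchor, measured 6.30, 6.41, 6.67 and 6.53 on the non-irradiated and 5.86, 5.66, 6.25 and 4.99 on the irradiated LGR5hi arrays. On the non-irradiated LGR5lo arrays it measured 6.62, 5.99, 6.90, 1.51 and 6.37, and on the irradiated ones 6.53, 6.33, 6.71 and 6.53. The LGR5hi groups did not overlap, and 1 LGR5lo array, replicate 4, lay 4.47 log2 below the next. That array widens the shared spread, so that the difference of -0.79 in LGR5hi cells carried an SE of 0.83 (adjusted p = 0.688). Without it the difference was -0.79 ± 0.24 and was called (adjusted p = 0.0391), and LGR5hi minus LGR5lo after irradiation was -0.84 ± 0.24 (adjusted p = 0.0513). That fit kept irradiated LGR5hi replicate 4, where Sdhd was at 4.99 against 5.66 on the next array. Genes low on the omitted array were often at their group's lowest there too, as given below. How far the call rests on irradiated LGR5hi replicate 4 was not tested, as a fit without both arrays was not made. The Sdhd probe (NM_025848) maps to chromosome 9, 50404630 to 50404689 on mm9.

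**Figure D3:**
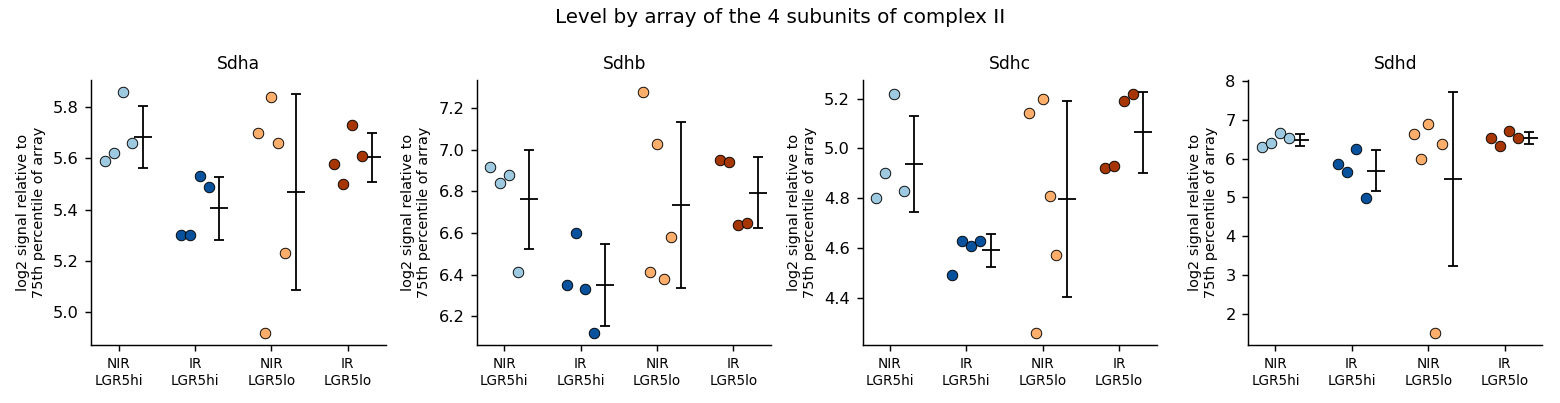
Normalised log2 signal of the 4 subunits of complex II on each array (points) with group mean and SD (bars); each panel has its own scale. The irradiated LGR5hi arrays hold the lower values of Sdha, Sdhc and Sdhd among LGR5hi arrays, and 1 non-irradiated LGR5lo array lies at 1.51 for Sdhd.

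The same array was low for other members. On non-irradiated LGR5lo replicate 4, 6 of 87 members (6.9%) lay at least 1 log2 below every other array of the group, against 4.14% of all names (1144 of 27604). They were Ndufc2 (0.77 against 5.69 on the next array, 30.3-fold), Sdhd, Cox6c (2.63 against 6.95), Ndufc1 (3.74 against 6.12), Atp5j (4.36 against 5.94) and Ndufb7 (4.99 against 6.10), named after their values were seen. All 6 were also at their group's lowest on irradiated LGR5hi replicate 4, as were 79.6% of the 1144 names and 35.1% of all names. For Cox7c and Uqcrb the tested probe was not low on that array (6.42 and 6.61) while another probe of the same gene was (2.57 and 3.65). Both probes of Atp5j were low there, by 1.58 and 1.66 log2, and the other 5 genes have 1 probe each. What sets these probes apart was not tested. The fitted values of Ndufc2, 1.53 in LGR5lo irradiation, and of Cox6c, 1.21, became 0.47 ± 0.26 and 0.28 ± 0.25 without the array.

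Complex III passes electrons from ubiquinol to cytochrome c, and 0 of its 8 members were called in any comparison. The median was -0.10 log2 in LGR5hi cells and 0.21 in LGR5lo cells (-0.12 and 0.02 after quantile normalization, -0.15 and 0.33 after median centring), with 0 members at an unadjusted p under 0.05 in either. Uqcr10, a small accessory subunit, had the smallest p in LGR5hi cells, at -0.33 ± 0.20 (adjusted p = 0.387). The core protein Uqcrc1 was 0.03 ± 0.18 there and 0.34 ± 0.17 in LGR5lo cells (adjusted p = 0.962 and 0.241), and the Rieske iron-sulphur protein Uqcrfs1 was -0.06 ± 0.16 and 0.26 ± 0.16. Across members the differences spanned -0.33 to 0.03 in LGR5hi and 0.14 to 0.34 in LGR5lo cells.

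Complex IV, cytochrome c oxidase, has 11 members of the main isoforms, and again 0 were called in any comparison, with 0 at an unadjusted p under 0.05 for irradiation of LGR5hi and 1 of LGR5lo cells. The medians were -0.07 log2 in LGR5hi and 0.23 in LGR5lo cells (-0.15 and 0.00 after quantile normalization, -0.12 and 0.35 after median centring). Cox4i1, the regulatory subunit of most tissues, measured 8.21, 8.17, 7.75 and 7.92 without and 8.09, 8.44, 7.94 and 7.92 with irradiation in LGR5hi cells. These arrays overlapped and differed by 0.09 ± 0.21. Cox5b had the smallest p of the class in LGR5lo cells, at 0.38 ± 0.16 (adjusted p = 0.156), with -0.13 ± 0.16 in LGR5hi cells. Ndufa4, named for complex I but now counted with complex IV, was -0.16 ± 0.24 and 0.37 ± 0.23. Cox7a2l, a factor that joins complexes III and IV into supercomplexes, was 0.14 ± 0.18 and 0.19 ± 0.17.

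In the fit over all arrays without a block, the members called between the sorts were the tissue isoforms of complex IV Cox6b2, Cox6a2 and Cox7a1, and the settings given further on add others. Cox6b2, the testis isoform of the subunit that joins the oxidase into dimers, rose in both sorts and was higher in LGR5hi cells in both arms. It measured 1.71, 1.24, 1.56 and 1.19 on the non-irradiated and 3.20, 3.79, 2.51 and 2.82 on the irradiated LGR5hi arrays. On the LGR5lo arrays it measured 0.74, 0.08, 0.69, 0.35 and 0.38 without and 1.55, 2.43, 1.09 and 1.63 with irradiation. In each of the 4 comparisons of groups the arrays were fully apart. The group means were 1.43 ± 0.25 (SD, n = 4) and 3.08 ± 0.55 (n = 4) in LGR5hi cells and 0.45 ± 0.27 (n = 5) and 1.68 ± 0.56 (n = 4) in LGR5lo cells.

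Cox6b2 thus rose by 1.66 ± 0.29 log2 in LGR5hi cells, 3.15-fold (adjusted p = 0.000958), and by 1.23 ± 0.28 in LGR5lo cells (adjusted p = 0.012). On slide 1 the rises were 2.02 and 1.59, and on slide 2 they were 1.29 and 0.84. Both calls held under all 31 alternatives that used both slides, with rises of 1.42 to 1.85 and of 0.97 to 1.42. The rise was 0.43 ± 0.40 larger in LGR5hi cells, a difference that was not called (adjusted p = 0.739). The sequence probed (NM_183405) lies at chromosome 7, 4703488 to 4703547 on mm9, and the array held 1 probe for the gene. The main isoform, Cox6b1, was -0.05 ± 0.19 in LGR5hi and 0.08 ± 0.18 in LGR5lo cells.

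Cox4i2, the isoform of lung and low oxygen, was 0.17 ± 0.21 in LGR5hi and 0.15 ± 0.20 in LGR5lo cells, and Ndufa4l2, known to be induced in low oxygen, was -0.06 ± 0.53 and -1.04 ± 0.50 (adjusted p = 0.973 and 0.214). Neither was called in any comparison. The muscle isoform gene Cox7a1 was -0.14 ± 0.43 and 0.30 ± 0.41 after irradiation, and the muscle isoform gene Cox6a2 -0.49 ± 0.23 and -0.60 ± 0.22 (adjusted p = 0.227 and 0.117). Cox6a2 and Ndufa4l2 were dim, at levels of -4.31 to -2.45 and -4.97 to -1.34.

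ATP synthase makes ATP from the proton gradient, and 0 of its 15 members were called in any comparison, with 0 at an unadjusted p under 0.05 for irradiation of either sort. Its median was -0.11 log2 in LGR5hi and 0.10 in LGR5lo cells (-0.18 and -0.13 after quantile normalization, -0.16 and 0.22 after median centring). The alpha and beta subunit genes Atp5a1 and Atp5b were -0.13 ± 0.18 and 0.06 ± 0.19 in LGR5hi cells and 0.19 ± 0.17 and 0.02 ± 0.18 in LGR5lo cells. Atp5b measured 8.45, 8.24, 8.38 and 8.38 without and 8.36, 8.34, 8.42 and 8.56 with irradiation in LGR5hi cells, so that the groups overlapped throughout. Atp5d, the delta subunit, had the smallest p in LGR5lo cells, at 0.30 ± 0.16 (adjusted p = 0.245). The name rule also took 3 genes that are no subunits of a complex: Cox4nb (now Emc8) at -0.01 ± 0.14, Atp5s (now Dmac2l) at -0.42 ± 0.17 and Atp5sl (now Dmac2) at -0.53 ± 0.17 in LGR5hi cells, the latter pair not overlapping and with adjusted p = 0.138 and 0.0522.

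The difference between the irradiation effects asks whether the sorts answered differently. Of the 87 members 0 were called, against 0.0398% of all names (0.0362% higher and 0.00362% lower), and 5 (5.75%) had an unadjusted p under 0.05, against 6.79% of all names. They were Ndufs3, Ndufs8, Ndufaf3, Sdhc and Cox5b (adjusted p = 0.695 to 0.715). All 5 lay lower in LGR5hi than in LGR5lo cells, by -0.61 to -0.51 log2. The median of the members was -0.29 with 80 of 87 below 0, and it ran from -0.46 after median centring to -0.11 after quantile normalization, against 0.06 for all names and -0.18 for the brightest of the 5 classes. Without non-irradiated LGR5lo replicate 2 it was -0.17. On slide 1 it was -0.36 and on slide 2 it was -0.11.

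The spread behind these shifts was followed array by array. For each gene the deviation from its mean over the 17 arrays was taken, and the median over the subunits of a complex gave 1 value per array. For the 36 complex I subunits the values were 0.19, 0.20, -0.07 and -0.11 on the non-irradiated and -0.13, 0.08, -0.20 and -0.23 on the irradiated LGR5hi arrays. They were 0.37, -0.41, 0.15, 0.01 and -0.19 on the non-irradiated and 0.13, 0.18, 0.08 and 0.08 on the irradiated LGR5lo arrays. The groups overlapped in both sorts, and the non-irradiated LGR5lo arrays spread the most (SD 0.30, against 0.05 to 0.17 in the other groups). For the 4 genes of complex II the values were 0.16, 0.13, 0.35 and 0.05 and then -0.27, -0.23, -0.12 and -0.38 in LGR5hi cells, where the groups did not overlap. Among lists outside the members, electron carriers were also apart there, at 0.03 to 0.12 and then -0.10 to -0.03. So were regulators of mitochondrial biogenesis, at 0.19 to 0.35 and then -0.08 to 0.11. Of all single names 13% lay lower without overlap in this comparison. Non-irradiated LGR5lo replicate 2 was the lowest of its group for 72 of 87 members, with a median deviation of -0.52 from the rest of the group against -0.11 for all names. Measured from the mean over the 17 arrays, its median was -0.47 for the members and -0.57 for the 937 names within the members' middle range of level. The part of this array in the shift of LGR5lo cells was measured by leaving it out (0.06 in place of 0.17).

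**Figure D4:**
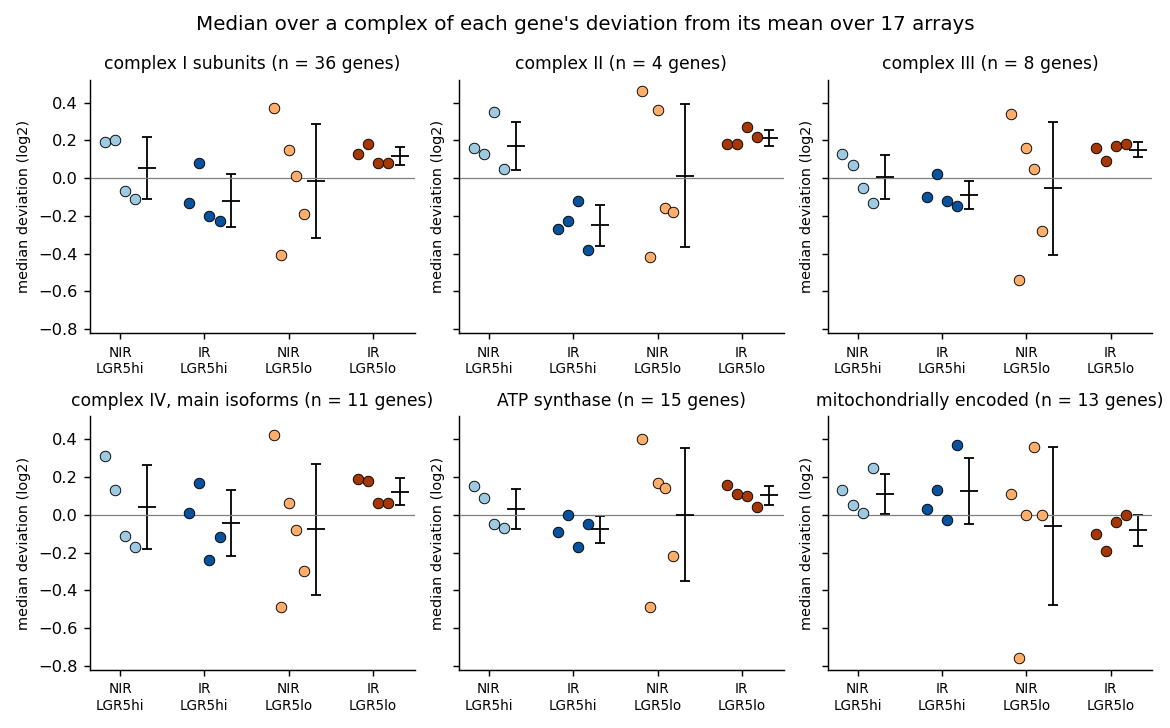
Median over the genes of a complex of each gene's deviation from its own mean over the 17 arrays (log2), 1 point per array, with group mean and SD (bars). Complex II is lower on all 4 irradiated than on all 4 non-irradiated LGR5hi arrays, irradiated and non-irradiated arrays of a sort overlap in the other panels, and the widest group is non-irradiated LGR5lo with replicate 2 lowest.

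The sorts were also compared within each arm. Without irradiation Cox6b2 was higher and Cox6a2 lower in LGR5hi than in LGR5lo cells, and no other member was called, against 9.58% of all names (4.64% higher and 4.94% lower). The median of the members was 0.06 log2, but -0.10 after quantile normalization, 0.21 after median centring and -0.04 without non-irradiated LGR5lo replicate 2. Cox6b2 was 0.98 ± 0.28 higher (adjusted p = 0.035), with 0.0506 when slide was a block, 0.0768 with replicate number as a block and no call when any 1 of the 4 non-irradiated LGR5hi arrays or LGR5lo replicate 2, 4 or 5 was left out. The call was also lost with normexp, with no filter and with array weights. On every LGR5hi array Cox6b2 lay above every LGR5lo array, as for 5.7% of all names, and no member lay below in this way, against 5.17%. Cox6a2 measured -3.87, -3.62, -2.92 and -3.90 in LGR5hi and -3.36, -2.56, -2.99, -2.83 and -2.45 in LGR5lo cells. These arrays overlap, and the difference of -0.74 ± 0.22 (adjusted p = 0.0474) kept its call in 7 of 32 alternatives and was -0.04 after quantile normalization. The number of members called was 0 when replicate 1, 2 or 4 of non-irradiated LGR5hi cells or replicate 4 or 5 of non-irradiated LGR5lo cells was left out, against 5.23% to 8.09% of all names. It was 1 without non-irradiated LGR5lo replicate 3 or any 1 irradiated array, against 8.31% to 11.2% of all names. Ndufa7 of complex I at 0.44 ± 0.19 and Atp5g2, a c-subunit gene of ATP synthase, at 0.35 ± 0.17 were not called (adjusted p = 0.167 and 0.211).

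After irradiation 1 member was higher and 1 lower in LGR5hi than in LGR5lo cells, against 6.31% of all names (2.21% higher and 4.1% lower). Cox6b2 was higher by 1.41 ± 0.29 log2 (adjusted p = 0.00715), a call kept under all 32 alternatives. Cox7a1, the muscle isoform, was lower by -1.76 ± 0.43 (adjusted p = 0.022). It measured 1.82, 2.28, 2.53 and 3.02 in irradiated LGR5hi and 4.24, 4.46, 3.98 and 3.99 in irradiated LGR5lo cells, with no overlap. Without irradiation it measured 2.01, 3.03, 3.85 and 1.32 in LGR5hi and 3.94, 3.08, 4.01, 4.28 and 4.04 in LGR5lo cells, a difference of -1.32 ± 0.41 that was not called (adjusted p = 0.0552). The call after irradiation was lost with arm and number as a fixed block (adjusted p = 0.0662). The count of called members fell to 1 without replicate 1 or 2 of either irradiated group, against 3.85% to 4.86% of all names. Beside these muscle isoforms, the smooth muscle marker Des was above background on 4 of 16 arrays and Myh11 on 9, the 5 muscle markers had 0 calls in either arm, and their summed level was 0.80 to 1.30 in LGR5hi and 1.03 to 2.17 in LGR5lo arrays. Non-irradiated LGR5lo replicate 2, the array with 95.6% of spots well above background, held the highest median deviation of the muscle markers, 2.79. It also held the highest of the stromal and endothelial markers (1.48) and of the erythrocyte markers (2.2). Names within the members' middle range of level lay at -0.57 on it, and Cox7a1 was at its group's lowest. The markers of enteroendocrine, goblet and tuft cells differed between the sorts as given above. The part of these cells and of muscle in these differences was not tested.

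Same-numbered LGR5hi and LGR5lo arrays of an arm deviated together, so the pairing was also fitted. With arm and number as a random block, 6 members (6.9%) were called after irradiation in place of 2, with Cox6b2 higher and 5 lower, against 10.5% of all names. Among the 5 were Cox7a1, Ndufs8 at -0.55 (adjusted p = 0.0267), Ndufaf3 at -0.48 (adjusted p = 0.0377) and Ndufb10 at -0.52 (adjusted p = 0.0395). With the fixed block 1 was called, Cox6b2. Without irradiation the random block added Cox7a1 at -1.31 (adjusted p = 0.0322), and the fixed block left Cox6b2 alone. Without non-irradiated LGR5lo replicate 2 and with no block, 5 members (5.75%) were called after irradiation, against 10.3% of all names: Cox6b2, Cox7a1, Ndufaf3, Ndufb10 and Ndufs8.

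With array weights 19 members (21.8%) were called after irradiation, against 18.2% of all names, and after quantile normalization 14 (16.1%), against 6.89%. All but Cox6b2 were lower in LGR5hi cells. On every irradiated LGR5hi array 24 of 87 (27.6%) lay below every irradiated LGR5lo array, against 10.1% of all names, and 2 (2.3%), Cox6b2 and Cox7a2l, lay above, against 11.1%. The 24 held 10 of 36 complex I subunits, 3 of 4 of complex II, 3 of 8 of complex III, 1 of 11 of the main isoforms of complex IV (9.09%) and 4 of 15 of ATP synthase. The members' median was -0.22 with 77 of 87 below 0, and it was -0.26 after quantile normalization, -0.24 after median centring, -0.17 on slide 1 and -0.26 on slide 2, against 0.05 for all names. The medians were -0.24 for complex I, -0.46 for complex II, -0.26 for complex III, -0.23 for the main isoforms of complex IV and -0.21 for ATP synthase. After quantile normalization they were, in the same order, -0.21, -0.46, -0.27, -0.27 and -0.32. The shift was not particular to the members. Of 24 genes of the citric acid cycle and pyruvate dehydrogenase 29.2% lay lower without overlap, and of 16 electron carriers 25%. Their medians were -0.28 and -0.22. For 76 mitochondrial ribosome genes the share was 9.21% and the median -0.07. For 13 genes encoded by mitochondrial DNA these were 0% and 0.19. Ndufs8 measured 3.79, 3.80, 3.63 and 3.78 in irradiated LGR5hi and 4.22, 4.2, 4.34 and 4.42 in irradiated LGR5lo cells, at -0.55 ± 0.17 (adjusted p = 0.0813). Uqcrfs1 was -0.35 ± 0.16 and Atp5k, the e subunit of ATP synthase, -0.33 ± 0.15 (adjusted p = 0.275 and 0.26). The irradiation comparisons and those of the sorts share arrays, so their values are not independent of each other.

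Genes that work with the complexes were counted from lists. Of 13 genes encoded by mitochondrial DNA, 0 were called in any comparison and 0 had an unadjusted p under 0.05. For LGR5hi minus LGR5lo cells the median was 0.19 in both arms, but -0.06 without and 0.00 with irradiation after quantile normalization, and -0.01 without irradiation when non-irradiated LGR5lo replicate 2 was left out. The medians were 0.00 log2 for irradiation in LGR5hi and 0.02 in LGR5lo cells (-0.08 and -0.14 after quantile normalization, -0.04 and 0.14 after median centring). The cytochrome c oxidase gene COX1 was 0.02 in LGR5hi and 0.09 in LGR5lo cells. The nuclear genes of the ATP synthase inhibitor, Atpif1, and of the small subunit Usmg5 were -0.42 ± 0.20 and -0.01 ± 0.19 in LGR5hi cells (adjusted p = 0.219 and 0.994).

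Genes of other assembly factors and metal chaperones included Sdhaf1, which rose in both sorts. Of 27 listed, 3 rose and 1 fell in LGR5hi cells (14.8%, against 13.5% of all names) and 1 rose in LGR5lo cells (3.7%, against 7.51%). Sdhaf1, which is needed to equip Sdhb of complex II with its iron-sulphur clusters, measured 3.54, 3.39, 3.12 and 3.35 without and 4.77, 5.06, 4.78 and 4.83 with irradiation in LGR5hi cells. In LGR5lo cells it went from 3.28, 2.72, 3.08, 3.21 and 2.79 to 4.09, 4.25, 4.38 and 4.34. The groups were far apart in both sorts: the rises were 1.51 ± 0.15 (adjusted p = 6.39e-06) and 1.25 ± 0.15 log2 (adjusted p = 5.46e-05), kept under all 31 alternatives that used both slides. After irradiation Sdhaf1 was 0.59 ± 0.15 higher in LGR5hi than in LGR5lo cells (adjusted p = 0.029). That call was lost without any 1 of the 8 irradiated arrays, after median centring and with normexp. The subunits of complex II that Sdhaf1 serves were at a median of -0.38 and 0.20 for irradiation in LGR5hi and LGR5lo cells. Sco2, a copper chaperone of complex IV and a known p53 target, rose by 0.71 ± 0.20 in LGR5hi cells (adjusted p = 0.0246; lost after median centring and without non-irradiated LGR5hi replicate 2 or 3 or irradiated LGR5hi replicate 2 or 4) and was 0.61 ± 0.19 in LGR5lo cells (adjusted p = 0.0625). The copper chaperone gene Cox17 (named after its value was seen) rose by 0.87 and the assembly factor gene Cox19 fell by 0.66 ± 0.16 (adjusted p = 0.0105) in LGR5hi cells.

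Of 16 tested genes of electron carriers, 1 rose in LGR5hi (6.25%) and 2 rose in LGR5lo cells (12.5%), against 13.5% and 7.51% of all names. Coq10b, a coenzyme Q binding protein, rose by 1.37 ± 0.25 log2 in LGR5hi (adjusted p = 0.00115) and by 0.88 ± 0.23 in LGR5lo cells (adjusted p = 0.0308). The latter call was lost without non-irradiated LGR5lo replicate 5 or irradiated LGR5lo replicate 1, 3 or 4. It was also lost after quantile normalization, with the mean of a gene's probes, with replicate number as a block and with only the compared groups. Coq10b measured -1.46, -0.47, -0.40 and -1.13 on non-irradiated and 0.58, 0.13, 0.56 and 0.76 on irradiated LGR5hi arrays, with no overlap. Cycs, the gene of cytochrome c, rose by 0.55 ± 0.15 in LGR5lo cells (adjusted p = 0.0402) and was 0.47 ± 0.16 in LGR5hi cells (adjusted p = 0.0679). The call was kept in 13 of 31 alternatives. It was lost without non-irradiated LGR5hi replicate 2 or 4, LGR5lo replicate 2 or 5, irradiated LGR5hi replicate 1, 3 or 4, or any irradiated LGR5lo array. Median centring, normexp, no filter, the mean of a gene's probes and the compared groups alone also lost it. So did replicate number as a block and the random block. The testis form, Cyct, was -0.13 ± 0.56 and -0.67 ± 0.53. Between the sorts, Coq2, of coenzyme Q synthesis, was 0.50 ± 0.14 higher in non-irradiated LGR5hi cells (adjusted p = 0.039, and 0.08 with slide as a block). Pdss2, which makes the side chain, differed by -0.67 ± 0.19 between irradiated sorts (adjusted p = 0.0469). Each of these calls was kept in 15 of 32 alternatives and lost without any of 10 arrays for Coq2 and any of 12 for Pdss2, the 4 non-irradiated LGR5hi arrays among both.

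Of 18 regulators of mitochondrial biogenesis, 5 fell and 1 rose in LGR5hi cells (33.3%, against 13.5% of all names), and in LGR5lo cells 1 rose and 0 fell (5.56%, against 7.51%). Between the sorts 4 were higher in LGR5hi cells without irradiation (22.2%, against 9.58% of all names). With irradiation 1 was higher and 1 lower (11.1%, against 6.31%). Ssbp1, 1 of the 4, was 0.55 higher (limma adjusted p = 0.0387), a call kept in 12 of 32 alternatives. Ppargc1a, the coactivator PGC-1alpha, measured 0.44, 0.17, 0.55 and -0.02 without and -0.30, -1.09, -0.83 and -0.82 with irradiation in LGR5hi cells. In LGR5lo cells it went from 0.15, -0.03, 0.66, 0.31 and 0.04 to 0.46, 0.67, -0.02 and -0.30. The LGR5hi groups were apart and the LGR5lo groups overlapped, with changes of -1.05 ± 0.24 (adjusted p = 0.00628) and -0.02 ± 0.22 (adjusted p = 0.956). The difference between the sorts, -1.02 ± 0.32, was not called (adjusted p = 0.54). After irradiation Ppargc1a differed by -0.97 ± 0.24 between LGR5hi and LGR5lo cells, lower in LGR5hi (adjusted p = 0.0205; lost without irradiated LGR5lo replicates 1 or 2 or irradiated LGR5hi replicates 2, 3 or 4).

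The nuclear receptor gene Esrrg fell by -1.18 ± 0.21 in LGR5hi cells (adjusted p = 0.0012) and was 1.08 ± 0.20 higher there than in LGR5lo cells without irradiation (adjusted p = 0.00248). Polg2, a subunit of the mitochondrial DNA polymerase, changed by -1.02 ± 0.23 (adjusted p = 0.0056) and Tfam, which packages mitochondrial DNA, by -0.64 ± 0.18 (adjusted p = 0.0251). The probes of Tfam, however, ranged from -0.72 to 0.03. Its call was lost without non-irradiated LGR5hi replicate 1, 2 or 4 or irradiated LGR5hi replicate 1 or 3. Median centring, normexp and the mean of a gene's probes also lost it. The other that fell was Tfb1m (named after its value was seen), at -0.58. Myc, which drives growth and ribosome genes, rose by 0.66 ± 0.19 in LGR5hi and 0.80 ± 0.18 in LGR5lo cells (adjusted p = 0.0275 and 0.012). The former call was lost without non-irradiated LGR5hi replicate 1 or 2 or irradiated LGR5hi replicate 1, 3 or 4, after median centring and with normexp. The latter was lost with only the compared groups. Myc was also higher in LGR5hi than in LGR5lo cells, by 0.93 without irradiation (limma adjusted p = 0.00339) and by 0.79 with it (adjusted p = 0.018). The call without irradiation was lost with only the compared groups. The other was lost after median centring and without irradiated LGR5lo replicate 1 or LGR5hi replicate 4. Esrra was 0.17 ± 0.17 and 0.26 ± 0.16, and Ppargc1b -0.31 ± 0.23 and 0.06 ± 0.22. The Nrf1 probe was 1 of those low on non-irradiated LGR5lo replicate 4, at -3.81 against 0.93 to 1.67 on the other arrays of the group, and its difference in LGR5hi cells was -0.48 ± 0.85.

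Upstream of the chain, 24 genes of the citric acid cycle and pyruvate dehydrogenase were listed. In LGR5hi cells 1 rose and 4 fell (20.8%, against 13.5% of all names), and in LGR5lo cells 1 rose and 2 fell (12.5%, against 7.51%). Pdk2, a kinase that switches pyruvate dehydrogenase off, measured 2.50, 1.85, 2.0 and 1.5 without and -0.52, 0.54, -0.55 and -0.42 with irradiation in LGR5hi cells. In LGR5lo cells it went from 2.16, 1.25, 1.77, 1.70 and 1.43 to 0.26, 1.05, 0.27 and 0.05. It thus fell without overlap in both, by -2.20 ± 0.29 (adjusted p = 8.81e-05) and -1.26 ± 0.28 log2 (adjusted p = 0.0114). The related kinase gene Pdk1 fell by -1.03 ± 0.16 and -0.62 ± 0.15 (adjusted p = 0.000393 and 0.0211), and Pdp1, a phosphatase that switches the enzyme on, rose by 1.25 ± 0.29 and 1.11 ± 0.27 (adjusted p = 0.00694 and 0.0199, with both calls lost after quantile normalization). The call of Pdk1 in LGR5lo cells was lost without irradiated replicates 1, 3 or 4, after median centring and with only the compared groups. That of Pdp1 in LGR5lo cells was also lost without irradiated replicates 3 or 4 and with only the compared groups. Pdk4, the kinase of fasting, was 1.40 ± 0.61 and 0.86 ± 0.58 (adjusted p = 0.169 and 0.35), and Pdk3 differed by -0.70 ± 0.17 between irradiated LGR5hi and LGR5lo cells (adjusted p = 0.0243). The call of Pdk3 was lost after median centring and without irradiated LGR5hi replicate 1 or 2 or LGR5lo replicate 1, 3 or 4. The other falls in LGR5hi cells, in Idh2 (-0.59) and the phosphatase gene Pdp2 (-0.61), are named after their values were seen.

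**Figure D5:**
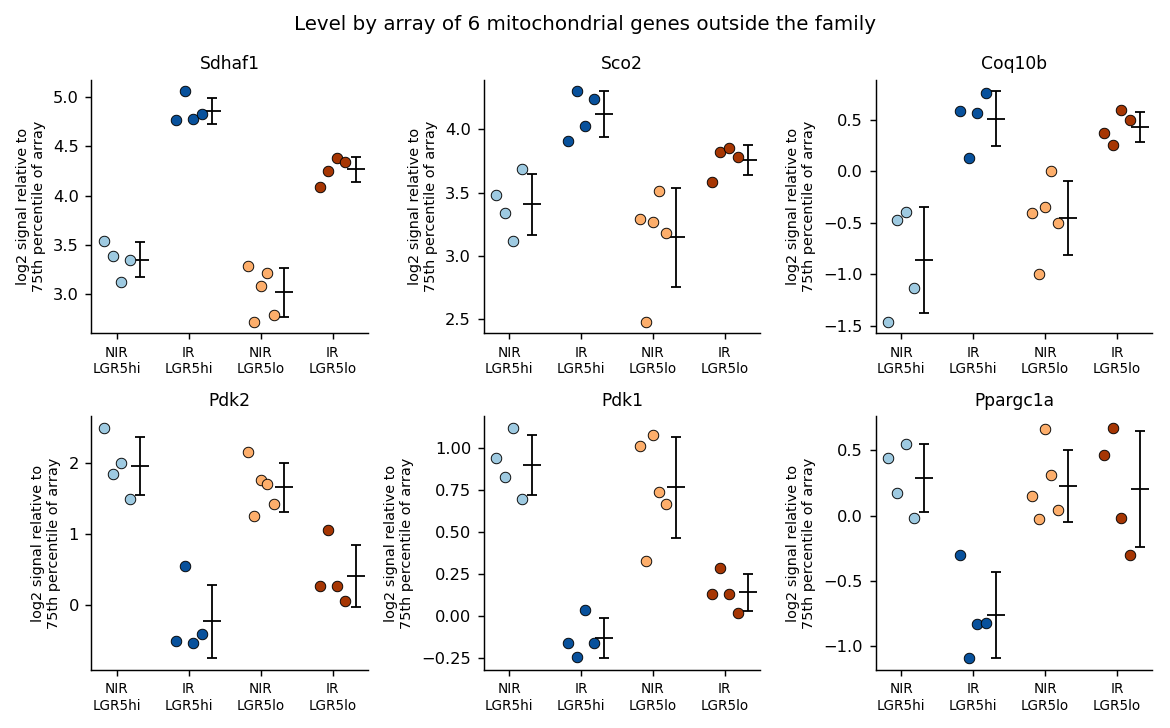
Normalised log2 signal of 6 mitochondrial genes outside the family on each array (points) with group mean and SD (bars). Sdhaf1, Sco2 and Coq10b lie higher and Pdk2 and Pdk1 lower on all irradiated (IR) than on all non-irradiated (NIR) arrays of their sort, and Ppargc1a lies lower on all irradiated than on all non-irradiated LGR5hi arrays and overlaps in LGR5lo cells, a difference between the sorts that was not called.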

How the data were processed

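RNA of 17 sorted samples was labelled with Cy3 and hybridised to single-colour Agilent mouse arrays. Each scanner file holds the processed signal intensity of every spot, background-corrected by Agilent Feature Extraction 10.7.3.1, per the submitters' processing notes and the file headers. The authors also deposited a series table of log2 values, which was found to be log2 processed signal scaled to each array's 75th percentile and centred per probe. Of the scanner files, 16 were whole. The remaining array, non-irradiated LGR5hi replicate 1, was rebuilt from the table and the probe baselines of the others. The same rebuild on the 16 whole arrays fell within 0.02 log2 for 100.0% of probes.

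Control spots and 2878 outlier spots were left out, replicate spots were averaged, and the array's 75th percentile was subtracted from log2 intensity. Probes well above background on at least 4 of 16 arrays were kept (41436 of 55681), and the brightest kept probe stood for each of 27604 names. limma 3.58.1 (R 4.3.3) was fitted to the 4 group means over all 17 arrays, with Benjamini-Hochberg adjustment over all names and a threshold of 0.05. The script was tested on simulated data for irradiation of LGR5hi cells with 27604 genes. It recovered 2%, 22% and 66% of rises of 0.5, 1 and 2 log2 and 32% of falls of 1 log2 (written as -1). A far smaller share of names was changed in the simulation than the 13.5% called in the data. This makes the adjusted threshold harder to reach there, so the shares cannot be carried over to the real comparison. They are also not for the members alone, for which recovery was not tested. For irradiation of LGR5hi cells the median SE was 0.18 log2 for the members and 0.26 for all names. The number of arrays limits the precision.

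Same-numbered LGR5hi and LGR5lo arrays of an arm correlated in their deviations from the group means (r = 0.122 to 0.456 over 8 pairs, against -0.298 to 0.143 for different numbers), and every pair was over 0.1. The numbers were therefore taken to pair the sorts within an arm. Numbers did not pair the arms (-0.101 to 0.221). Replicates 1 and 2 lay on slide 1, replicates 3 and 4 on slide 2, and non-irradiated LGR5lo replicate 5 on slide 3, so slide was also fitted as a block. Further settings were scaling by quantiles or by the median, background correction by normexp (offset 50, without non-irradiated LGR5hi replicate 1), no filter and a filter of 12 arrays, the mean of a gene's probes, array weights, sex, the compared groups alone, and each array left out. The 2 fits within a single slide were chosen after seeing the data.

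Members and lists were chosen with earlier results of these data known, so lists are given by counts and medians without a test. Genes named were the called members (at most 12 rises and 12 falls a comparison), the smallest p in each direction and the largest p per class, a set of constant names, and up to 3 called genes per outside list and comparison; others are marked as named after their values were seen. The values of 1 member are not reported here. Gene names are those of the array's design, and promoters are RefSeq's. Probe coordinates are mm9 and promoter coordinates GRCm38.p6.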

Additional observations from a re-analysis of the deposited data

Results flagged for a closer look

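Within groups of 4 or 5 arrays, 8 levels among the 88 groups tested lay far from the rest of their group by Dixon's 95% criterion, which chance meets in about 1 in 20 groups. Sdhd was 1.51 on non-irradiated LGR5lo replicate 4, where the next array of the group was at 5.99, and this array was low for other members too. Cox7a1 was 3.08 on non-irradiated LGR5lo replicate 2, where the next was 3.94. Irradiated LGR5hi replicate 2 was high for Ndufb6, at 6.02 against 5.71, and for Cox7a2l, at 7.56 against 7.29. Ndufab1 was 2.73 on irradiated LGR5lo replicate 4 against 2.52 on the next, and Ndufaf1 was 3.02 on replicate 2 of that group against 3.15. In complex II, Sdhb was 6.41 on non-irradiated LGR5hi replicate 4 against 6.84, and Sdhc was 4.49 on irradiated LGR5hi replicate 1 against 4.61. Each of these values entered the fits.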

How the results depend on the processing

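The count of called members moved with the processing. For irradiation of LGR5hi cells it was 4, and 10 after quantile normalization, 2 after median centring, 7 with only the compared groups and 17 with array weights. The 7 are 8.05% of members, against 17.3% of all names. For LGR5lo cells it was 3, and 5 after quantile normalization, 1 with only the compared groups and 6 with array weights. For the sorts without irradiation it was 2, and 9 after quantile normalization (10.3%, against 8.57% of all names). It was 1 (1.15%) after median centring, with only the compared groups or with array weights, against 9.54%, 4.2% and 9.52% of all names. It was 0 with normexp, with no filter or with slide as a block, against 3.61%, 6.02% and 7.46%. For the sorts after irradiation it was 2, and 14 after quantile normalization, 8 with only the compared groups and 19 with array weights. These are 16.1%, 9.2% and 21.8% of members, against 6.89%, 11.2% and 18.2% of all names. Within slide 1 or slide 2 alone, fits that were chosen after seeing the data, it was 0 in each of these 4 comparisons. Between the sorts, slides 1 and 2 held calls for 0.38% and 0.884% of all names without and 1.17% and 0.427% with irradiation.

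Pairing changed the counts between the sorts. With the replicate number as a block over all groups 0 members were called without irradiation, against 7.55% of all names. With arm and number as a fixed block 1 was called without and 1 with irradiation (1.15% each, against 8.65% and 8.45%). A random block (correlation 0.261) gave 3 and 6 (3.45% and 6.9%, against 15.1% and 10.5%). The block changed no other count of called members by over 1.5 times.

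Leaving out 1 array in turn gave 4 to 9 called members for LGR5hi irradiation, 3 to 4 for LGR5lo irradiation, 0 to 0 for the difference of the effects, 0 to 3 for the sorts without and 1 to 5 with irradiation. The share called over all names moved as well. In the same order it ran from 10.2% to 18.7%, 4.27% to 9.15%, 0% to 0.0942%, 5.23% to 15.3% and 3.85% to 10.3%. The members' median stayed between -0.18 and -0.10 in LGR5hi cells and between 0.06 and 0.25 in LGR5lo cells. The cause of these shifts was not tested. No result changed sign while called. Of the counts and medians, 185 values under the alternatives that used both slides stayed within their limits and 41 moved. The members' median SE was 0.18 log2 in LGR5hi and 0.17 in LGR5lo cells.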

Other observations

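Mitochondrial ribosome and import genes build and supply the complexes. Of 76 ribosome genes 3 rose and 3 fell in LGR5hi cells (7.89%, against 13.5% of all names), 5 rose and 0 fell in LGR5lo cells (6.58%, against 7.51%), and 0 were called between the sorts. The small subunit gene Mrps6 measured 3.88, 3.98, 3.51 and 4.06 on non-irradiated and 4.86, 4.95, 4.82 and 4.75 on irradiated LGR5hi arrays, with no overlap. It rose by 0.99 ± 0.15 log2 there (limma adjusted p = 0.000274) and by 1.04 ± 0.14 in LGR5lo cells (adjusted p = 0.000244). Mrpl16 rose by 0.64 ± 0.16 and 0.67 ± 0.15 (adjusted p = 0.012 and 0.0128; lost after median centring and with only the compared groups, respectively). Mrpl14 fell in LGR5hi cells, from 5.84, 5.82, 5.29 and 5.31 to 4.69, 5.16, 4.53 and 4.61, a change of -0.82 ± 0.20 (adjusted p = 0.00983), and was -0.40 ± 0.19 in LGR5lo cells (adjusted p = 0.207). Mrps26 rose by 0.62 ± 0.14 in LGR5lo cells (adjusted p = 0.0135; lost with the mean of a gene's probes, with only the compared groups and without irradiated LGR5lo replicate 3). The list's median was -0.04 in LGR5hi and 0.18 in LGR5lo cells (0.00 there after quantile normalization).

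Of 22 import genes 1 rose in LGR5hi (4.55%) and 2 in LGR5lo cells (9.09%), against 13.5% and 7.51% of all names called. Timm17a, a channel subunit of the inner membrane translocase, measured 4.41, 4.45, 4.51 and 4.39 without and 5.30, 5.12, 5.33 and 5.19 with irradiation in LGR5hi cells. It rose by 0.80 ± 0.15 there and by 0.83 ± 0.15 in LGR5lo cells (adjusted p = 0.00196 and 0.00191; the latter lost with only the compared groups), without overlap in either. Tomm20, a receptor of the outer membrane, rose by 0.60 ± 0.16 in LGR5lo cells (adjusted p = 0.0314; kept in 22 of 31 alternatives, and lost after median centring, with normexp, with only the compared groups, and without any 1 irradiated LGR5lo array or non-irradiated LGR5lo replicate 4 or 5) and was 0.40 ± 0.17 in LGR5hi cells (adjusted p = 0.161).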
